A study of Homo sapiens with 6 samples.

Results

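CUEDC2, FBXO11, ETS1, SP1, MTFR1, KCND2 and TSPAN8 are genes that the literature reports as targets of miR-324-5p, here without the targets that belong to Hedgehog signalling. The 7 genes were chosen by symbol from those reports, out of 20979 symbols listed in any library. That choice was made with earlier results of these data known. They were followed in A172, an established human glioblastoma cell line grown in culture. Cells were transfected by lipid with 1 of 3 agents. These were a control miRNA, a duplex named for miR-324-5p (the 5p duplex) and another named for miR-324-3p.1 (the 3p.1 duplex). Total RNA was taken after 1 day, enriched with oligo-dT and sequenced, with n = 2 libraries in each group. No library came from untransfected cells, so all 6 share the transfection itself, and strand loading of the duplexes was not measured. The labels do not say whether replicates were separate cultures, so p-values measure the spread between these libraries, which may be technical.

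A microRNA guides an Argonaute protein to messenger RNAs whose 3′UTR pairs with its seed, bases 2 to 8 from its 5′ end, and the usual outcome is deadenylation, decay and less translation of the transcript. A site that also has an A opposite base 1 is called an 8mer. Sites lacking that A (7mer-m8), lacking the pair at base 8 (7mer-A1) or lacking both (6mer) are on average weaker. A target may be shown by a reporter or by protein and still change little as RNA, so the levels below bear on transcript abundance alone.

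The seed of miR-324-5p and the sites it can pair with are printed because the comparison of the 7 genes turns on them. The MIR324 hairpin (chr17:7223297-7223379, minus strand) gives both arms, which are printed from RefSeq (GRCh38.p14) with the seed in capitals.
hsa-miR-324-5p: cGCAUCCCcuagggcauuggug
hsa-miR-324-3p: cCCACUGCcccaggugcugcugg
Among 2370 mature human miRNAs in that table, no other one had the seed of the 5p arm. The words searched on the transcript strand were GGGATGCA for the 8mer, GGGATGC for the 7mer-m8, GGATGCA for the 7mer-A1 and GGATGC for the 6mer, each gene being given its best class in its longest annotated 3′UTR (GENCODE 29, GRCh38). The shorter words lie inside the longer ones.

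Of the 7 genes, 4 had an 8mer: CUEDC2, FBXO11, ETS1 and SP1. Over all 11742 expressed genes with an annotated 3′UTR, 2.81% had an 8mer, 6.13% a 7mer-m8 at best, 5.70% a 7mer-A1 at best and 10.4% only a 6mer. How the reports picked these genes is not given here. A choice by seed site would itself raise the share with an 8mer, so the count is a description. The 8mers follow within their surroundings, with the site in capitals.
CUEDC2 (chr10:102423372-102423379, minus strand): ctaggctcagatcccagaGGGATGCAggag
FBXO11 (chr2:47807348-47807355, minus strand): aatgagacttcctaggaaGGGATGCActgt
ETS1 (chr11:128461885-128461892, minus strand): tgaaacatgttttgggggGGGATGCActga
SP1 (chr12:53411289-53411296, plus strand): gccataccccttaaccccGGGATGCAaggt
The 8 bases are the same in all 4 genes, while the surroundings differ. CUEDC2 holds its site in a 3′UTR of 181 nt, shorter than that of all but 5.48% of genes, and the flanks of the site (30 bases on each side) are 35% A or T. The flanks of the FBXO11 site are 66.7% A or T, those of ETS1 56.7% and those of SP1 48.3%.

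ETS1 and SP1 each had a further site, KCND2 and TSPAN8 had 1 3′UTR site each of the weaker classes, and these are printed so that the number of sites can be set against the response.
ETS1, 7mer-A1 (chr11:128460270-128460276, minus strand): tgtattattttgatcttttGGATGCAggtg
SP1, 7mer-m8 (chr12:53414237-53414243, plus strand): accaaaacttgcagggcagGGGATGCccag
KCND2, 7mer-m8 (chr7:120748513-120748519, plus strand): acctgcagtatttctcatgGGGATGCtcat
TSPAN8, 7mer-A1 (chr12:71125321-71125327, minus strand): atctgtGGATGCAtcaa
The 8mer lay in the 3′UTR of all annotated coding transcripts of CUEDC2 (1 of 1), ETS1 (5 of 5) and SP1 (2 of 2), but in 2 of 4 for FBXO11. The second site of ETS1 lay in 3 of 5 transcripts and that of SP1 in 1 of 2, so these depend on the longer 3′UTR forms, whose use cannot be read from a gene-level value. In the transcripts used, the 8mers lie in exon 9 of CUEDC2, exon 23 of FBXO11, exon 4 of ETS1 and exon 6 of SP1.

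MTFR1 had no match of any class in its 3′UTR of 1518 nt, nor in that of any of its 5 annotated coding transcripts with a 3′UTR. In the coding part of the transcripts used, MTFR1 had a 7mer-A1 and a 6mer, TSPAN8 a 7mer-m8 and KCND2 a 6mer, and the other 4 genes had no match. Those transcripts were picked for their 3′UTR, and their coding part was 678 nt for ETS1 and 875 nt for MTFR1. Coding parts of other transcripts, which may be longer, were not searched.

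**Figure D1:**
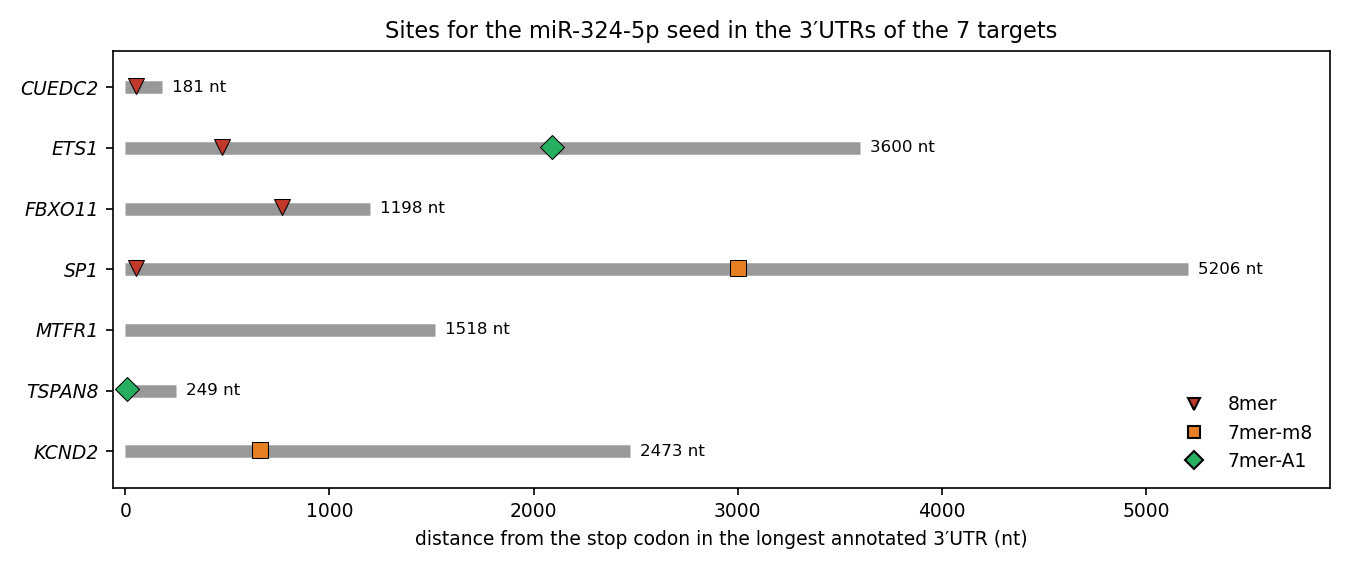
Sites for the miR-324-5p seed along the longest annotated 3′UTR of each gene, drawn to scale in nt from the stop codon, with the length at the right end. Triangles are 8mers, squares 7mer-m8 and diamonds 7mer-A1 sites. CUEDC2 carries its 8mer in 181 nt, SP1 carries 2 sites in 5206 nt, and MTFR1 carries none.

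All 7 genes were listed in all 6 libraries. Levels in TPM (a share of all transcripts, scaled by transcript length, so that different genes can be set side by side) had the order CUEDC2, ETS1, FBXO11, SP1, MTFR1, TSPAN8, KCND2, with means over the 6 libraries of 108, 100.3, 49.3, 34.0, 17.2, 6.02 and 0.04 TPM. CUEDC2 and ETS1 are neighbours whose libraries overlap, and CUEDC2 stood below ETS1 in the 5p duplex libraries alone. The other neighbours did not overlap between any libraries except FBXO11 and SP1, whose lowest and highest libraries were 39.1 and 40.7 TPM. KCND2 lay under the expression minimum of a mean of 1 TPM, so 6 of the 7 genes were tested, among 13400 genes.

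In the whole series the libraries listed 18660 to 19070 symbols, and values kept no read depth. Of 13 glioma and astrocyte markers, 7 reached 1 TPM on average. VIM averaged 5439, CD44 791, NES 113, SOX9 39.1, OLIG2 3.72, SOX2 2.48 and CHI3L1 2.475 TPM. TNC averaged 0.275 TPM, and GFAP, S100B, AQP4, SLC1A3 and FABP7 stood between 0 and 0.25 TPM in each library. Of 8 epithelial markers 5 reached 1 TPM (summed 931 to 1360 TPM), with KRT18 at 751, KRT8 at 389, CLDN4 at 16.3, EPCAM at 2.02 and CDH1 at 0.132 TPM. CLDN4, a tight junction gene, was higher with the 5p than with the 3p.1 duplex (log2 1.08, adjusted p = 0.0445), a call lost in each fit without 1 library (0.0852 to 0.392). Its part in the values of the 7 genes was not tested. Of 9 neuronal markers 3 did (summed 270 to 328 TPM), with TUBB3 at 277, GAD1 at 12.3 and SYT1 at 11.0 TPM, while RBFOX3 stood at 0.227, SNAP25 at 0.00333 and DCX at 0 TPM. Summed over 37 interferon response genes, the controls stood at 2898 and 7113 TPM against 1178 to 1250 TPM in the 4 duplex libraries. The control libraries thus differed from each other and from both duplexes in that response, and its part in the values against control was not tested.

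CUEDC2 was the gene of this set that fell. It encodes a ubiquitin-binding CUE domain protein known for restraining IkB kinase and for promoting the turnover of steroid hormone receptors. Its level was 137 and 117 TPM in the control libraries, 65.6 and 66.3 TPM with the 5p duplex, and 138 and 126 TPM with the 3p.1 duplex. The 5p duplex libraries lay far below the other 4, which overlapped with each other. Against control the 5p duplex gave a log2 fold change of -0.93 (SE 0.106, 95% interval -1.19 to -0.673, adjusted p = 0.0326), a 1.90-fold lower value. All log2 fold changes here are on the log2(TPM + 1) scale. Against the 3p.1 duplex, where interferon genes stood at like levels (median log2 difference -0.000653), the value was -0.99 (SE 0.106, 95% interval -1.24 to -0.732, adjusted p = 0.0292), or 1.98-fold lower. No control library enters that fold change, while its SE rests on the spread within all 3 groups. Fitted on the 4 duplex libraries alone, its adjusted p was 0.0448. With the 3p.1 duplex against control it was 0.058 (95% interval -0.198 to 0.314, adjusted p = 0.98). CUEDC2 stood 174th from the lowest of 13400 genes in the first comparison and 72nd in the second. In bulk RNA, fewer cells with the transcript and less of it per cell cannot be told apart.

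The calls for CUEDC2 were near the threshold while the fold change moved little. In fits without 1 library, where a group left with a single library is assumed to vary like the others, the call against control stood without control replicate 1 (-0.81, adjusted p = 0.0479). It was lost without control replicate 2 (-1.04, 0.0637), 5p duplex replicate 1 (-0.92, 0.228), 5p duplex replicate 2 (-0.94, 0.183), 3p.1 duplex replicate 1 (-0.93, 0.097) and 3p.1 duplex replicate 2 (-0.93, 0.0948). Against the 3p.1 duplex it was lost without 5p duplex replicate 1 (-0.98, 0.263), 5p duplex replicate 2 (-0.995, 0.185), 3p.1 duplex replicate 1 (-0.93, 0.266) and 3p.1 duplex replicate 2 (-1.05, 0.179). The latter call stood without either control library.

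FBXO11, the substrate receptor of an SCF ubiquitin ligase that is known to mark BCL6 for destruction, stood lower with the 5p duplex without passing the test. Its level was 53.6 and 57.2 TPM in control, 44.3 and 39.1 TPM after the 5p duplex, and 51.3 and 50.4 TPM after the 3p.1 duplex. Both 5p duplex libraries were the lowest of the 6, and the 3p.1 duplex libraries lay between them and the controls. The log2 fold change was -0.40 against control (SE 0.0989, 95% interval -0.641 to -0.164, adjusted p = 0.217), -0.28 against the 3p.1 duplex (95% interval -0.521 to -0.0444, adjusted p = 0.445) and -0.12 for the 3p.1 duplex against control (adjusted p = 0.914). FBXO11 overlaps MSH6, a mismatch repair gene on the other strand (chr2:47695530-47810101), and the 8mer lies in the shared stretch. How strand was used in counting is not given in the sources used here, so reads of that stretch are uncertain. The 5p duplex libraries had 76.2 and 61.3 TPM of MSH6, the control libraries 82.9 and 75.2 TPM (log2 -0.20, SE 0.130, adjusted p = 0.732). The 3p.1 duplex libraries had 87.0 and 78.25 TPM of MSH6 (log2 0.063 against control, adjusted p = 0.983). MSH6, like FBXO11, was thus lower on average after the 5p duplex than in both other groups. The part of MSH6 reads in the FBXO11 values was not tested.

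ETS1 and SP1, the transcription factors of the set, carry an 8mer and a further 7-base site each, and neither stood apart from control with the 5p duplex. ETS1, the founding member of the ETS family, stood at 94.4 and 94.3 TPM in control, 100.3 and 90.7 TPM after the 5p duplex, and 114 and 108 TPM after the 3p.1 duplex. The control values lay between those of the 5p duplex, and the 3p.1 duplex libraries were the highest. The log2 fold change with the 5p duplex was 0.015 (SE 0.09, 95% interval -0.202 to 0.232, adjusted p = 0.978). That interval leaves out a fall as large as that of CUEDC2. With the 3p.1 duplex it was 0.23 (95% interval 0.0149 to 0.449, adjusted p = 0.695), and between the duplexes -0.22 (adjusted p = 0.535).

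SP1, a zinc finger factor that binds GC boxes in many promoters, stood at 32.2 and 40.7 TPM in control, 34.4 and 35.1 TPM after the 5p duplex, and 29.7 and 31.7 TPM after the 3p.1 duplex. The controls spanned both 5p duplex values, and the 3p.1 duplex libraries were the lowest. The log2 fold change was -0.055 with the 5p duplex (SE 0.128, 95% interval -0.364 to 0.254, adjusted p = 0.944) and -0.23 with the 3p.1 duplex (95% interval -0.538 to 0.0800, adjusted p = 0.829). Both fold changes are against the same 2 control libraries.

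MTFR1, a mitochondrial protein known to promote fission, stood at 16.9 and 18.2 TPM in control, 14.9 and 16.1 TPM after the 5p duplex, and 19.0 and 18.4 TPM after the 3p.1 duplex. The 5p duplex libraries were the lowest and the 3p.1 duplex libraries the highest, with small gaps. The log2 fold changes were -0.17 for the 5p duplex against control (95% interval -0.414 to 0.0832, adjusted p = 0.728) and -0.26 for the 5p against the 3p.1 duplex (95% interval -0.504 to -0.007, adjusted p = 0.523). MTFR1 overlaps PDE7A on the other strand, which averaged 6.96 TPM.

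TSPAN8, a tetraspanin best known from digestive epithelia and their tumours, was low but present in each library, at 4.97 and 6.84 TPM in control, 5.79 and 6.06 TPM after the 5p duplex, and 5.83 and 6.61 TPM after the 3p.1 duplex. The controls spanned all other libraries, and the log2 fold change with the 5p duplex was 0.017 (SE 0.164, 95% interval -0.379 to 0.414, adjusted p = 0.99). KCND2, the pore subunit Kv4.2 of a fast potassium channel of neurons, stood at 0.04 TPM in each control, 0.03 and 0.01 TPM with the 5p duplex, and 0.01 and 0.11 TPM with the 3p.1 duplex. At those levels a lowering was not measurable in this cell line.

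**Figure D2:**
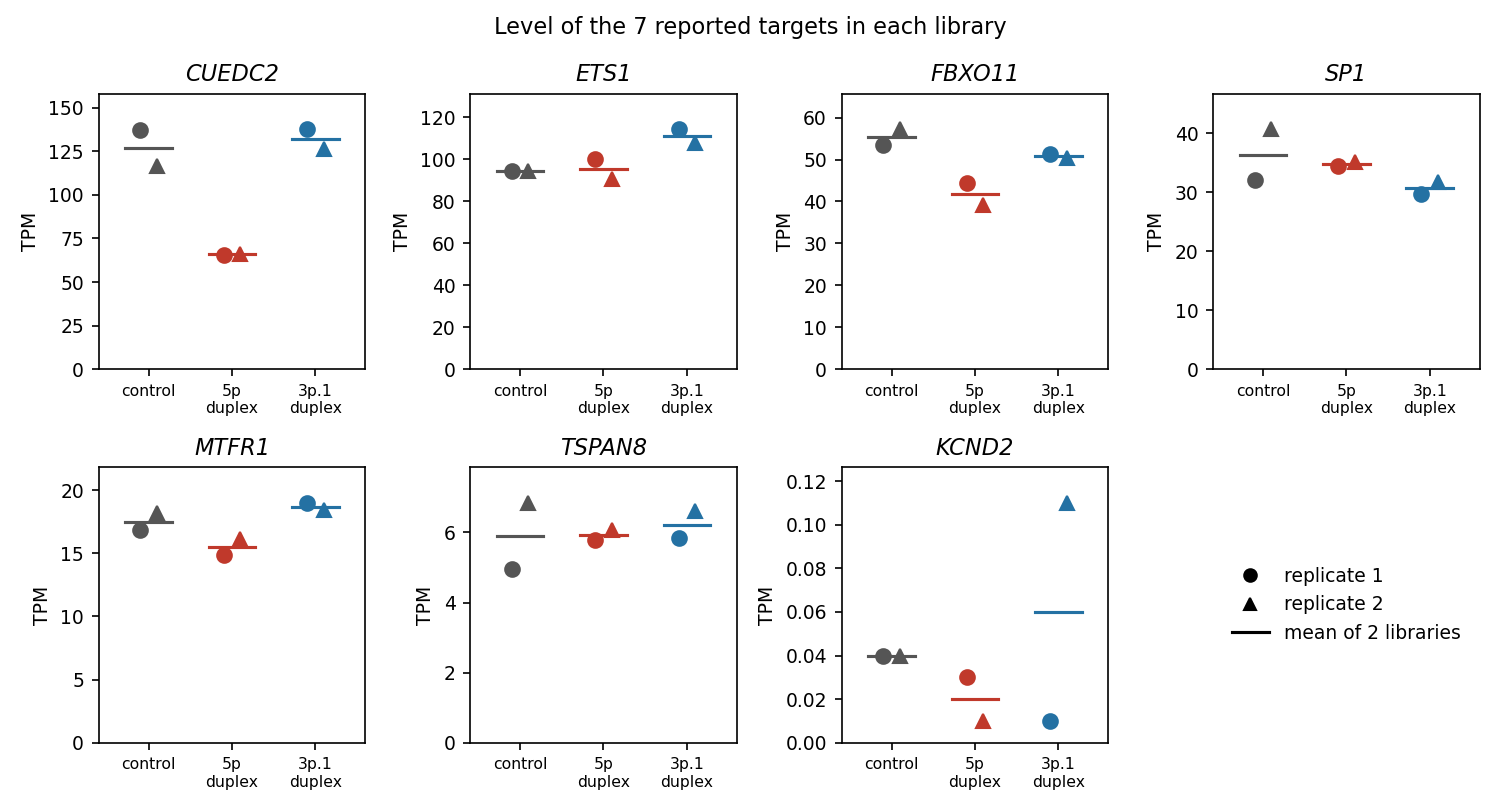
Level of each gene in TPM (vertical axis from 0, scale set per gene) in the control, 5p duplex and 3p.1 duplex libraries. Circles are replicate 1, triangles replicate 2 and bars the mean of 2 libraries; the 5p duplex libraries of CUEDC2 (65.6 and 66.3 TPM) and FBXO11 (44.3 and 39.1 TPM) lie below all others of the gene.

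By count, 1 of the 6 tested genes fell with the 5p duplex and 0 rose by limma, and 2 (CUEDC2 and FBXO11) had an unadjusted p under 0.05. Of all 13400 genes 0.425% fell, 0.0373% rose, 0.463% changed in either direction and 9.16% had an unadjusted p under 0.05. The median log2 fold change of the 6 was -0.11, with 4 below 0, beside -0.0304 over all genes, of which 57.2% lay below 0. The 5p duplex and control libraries did not overlap, with the 5p duplex lower, for 3 of the 6 (CUEDC2, FBXO11 and MTFR1), which 22.1% of all genes did. Against the 3p.1 duplex, 1 of 6 fell (0.351% of all genes) and the median was -0.236, beside 0.00547 over all genes. There 4 of 6 were lower without overlap, as were 19.4% of all genes. By limma 4 of 6 (CUEDC2, FBXO11, ETS1 and MTFR1) had an unadjusted p under 0.05, beside 9.34% of all genes. SP1 was the 1 of the 6 above 0 there (log2 0.17, 95% interval -0.135 to 0.483, adjusted p = 0.775). In the 3p.1 duplex against control 0 of 6 were called by limma and 1, ETS1, had an unadjusted p under 0.05. Of all genes 0.0149% changed there and 6.86% had such a p. The 2 comparisons against control share the control libraries, and the 2 with the 5p duplex share its libraries.

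**Figure D3:**
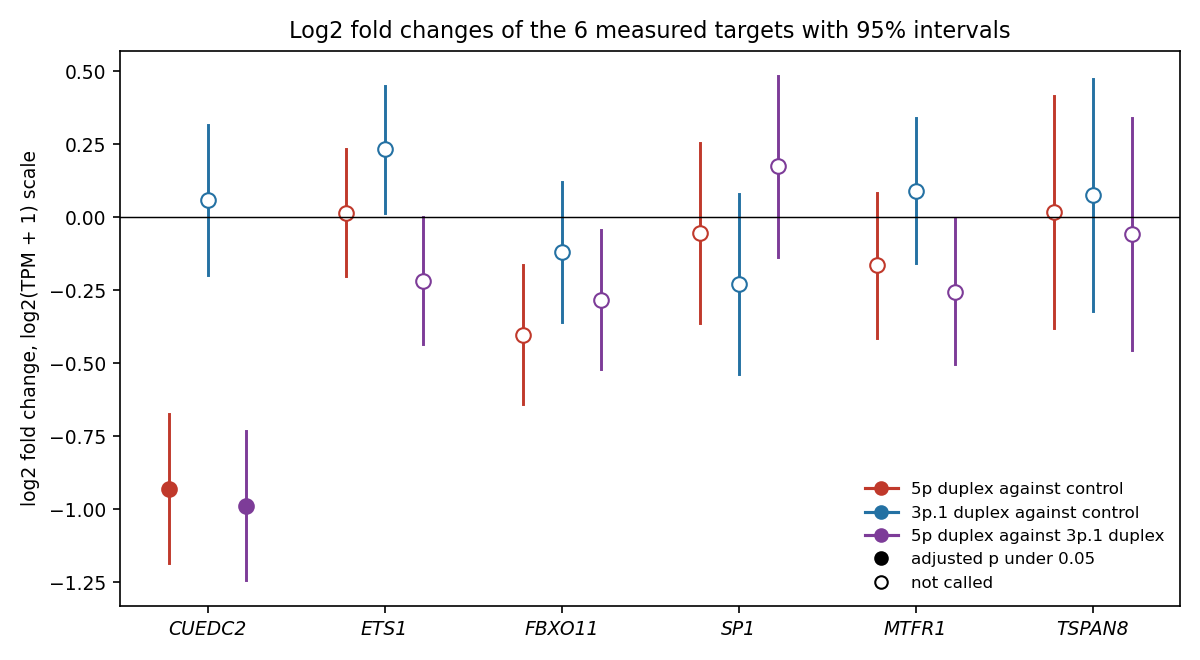
Log2 fold change on the log2(TPM + 1) scale of the 6 measured genes in 3 comparisons, with 95% intervals from limma as bars. Filled points passed an adjusted p of 0.05: they are CUEDC2 with the 5p duplex against control (-0.93) and against the 3p.1 duplex (-0.99).

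The 4 genes with an 8mer were spread over most of the range of the 330 expressed genes of that class. CUEDC2 ranked 12th from the lowest, FBXO11 74th, SP1 208th and ETS1 262nd in the 5p duplex against control. The class had a median of -0.128 with a middle range (25th to 75th percentile) of -0.363 to -0.00812, so CUEDC2 and FBXO11 lay below that range, SP1 within it and ETS1 above it. In all, 76.1% of the class lay below 0, beside 55.3% of the 8804 genes with no site. With the 3p.1 duplex against control the class had a median of -0.05425, beside -0.0273 with no site. Between the 5p and the 3p.1 duplex it was -0.0792, beside 0.00744 with no site. Of the class, 12 genes (3.64%) were called, CUEDC2 among them, beside 0.182% of genes with no site. TSPAN8 ranked 435th of the 669 genes with a 7mer-A1 at best, whose median was -0.0484. Its site lies close to the stop codon, at nt 7 to 13 of a 3′UTR of 249 nt. The genes next to CUEDC2 in the class were SEPT3, MGAT3, TMEM229B and RPA2. SEPT3, a septin gene, had 13.0 ± 0.113 TPM in the controls, 6.22 ± 1.85 TPM after the 5p duplex and 13.1 ± 2.78 TPM after the 3p.1 duplex (SD, n = 2, log2 -0.98, adjusted p = 0.155), so like CUEDC2 it was low after the 5p duplex and near control after the other. MGAT3, a glycosyltransferase gene, averaged 3.74 ± 0.219 TPM in the controls and 1.49 ± 0.233 TPM after the 5p duplex (n = 2, log2 -0.93, adjusted p = 0.0753). RPA2, a subunit of the single-stranded DNA binding complex, had 77.7 ± 17.1 and 40.1 ± 3.06 TPM (n = 2, log2 -0.92, adjusted p = 0.0975). TMEM229B, MGAT3 and RPA2 had means of 1.02, 2.50 and 46.4 TPM after the 3p.1 duplex, below their control means of 2.44, 3.74 and 77.7 TPM.

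**Figure D4:**
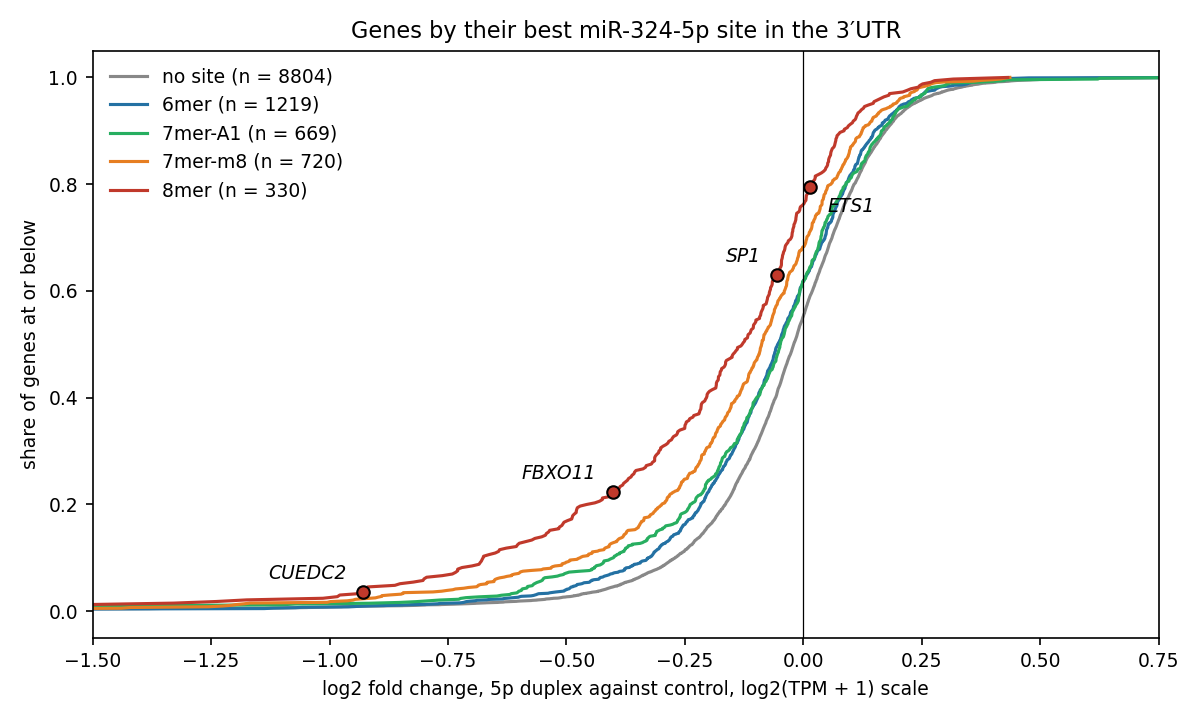
Share of genes (vertical axis) at or below each log2 fold change of the 5p duplex against control (horizontal axis, log2(TPM + 1) scale, shown from -1.5 to 0.75), by best miR-324-5p site in the 3′UTR. Points mark the 4 genes with an 8mer, at -0.93 for CUEDC2, -0.40 for FBXO11, -0.055 for SP1 and 0.015 for ETS1.

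Length and pairing of the 8mer genes were also described. The 9 genes of the class with a 3′UTR of up to 500 nt, CUEDC2 among them, had a median log2 fold change of -0.205. Their middle range was wide, -0.762 to -0.0718. The 80 with over 500 and up to 2000 nt, FBXO11 among them, had a median of -0.241. The 241 with over 2000 nt, ETS1 and SP1 among them, had one of -0.0926. By number of sites, the median was -0.118 for 231 genes with 1 site of 7 or 8 bases and -0.139 for 99 with more, to which ETS1 and SP1 belong. Length and number of sites were not separated, so their gaps cannot be ranked. Beyond the seed, the longest run of pairs between bases 9 to 22 of miR-324-5p and the 20 bases before the site was 5 for FBXO11 (bases 9 to 13), 4 for CUEDC2 (bases 9 to 12), 4 for SP1 (bases 11 to 14) and 3 for ETS1 (bases 15 to 17). Over 344 8mers the median was 3, and 47.4% had at least 4. These are descriptions of letters and lengths, with no test.

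The letters of the transfected 3p.1 duplex were not among the labels, so the annotated arm and the same arm starting 1 base later were searched. Other starts were not searched, so the matches below may not be those of the transfected duplex. For the annotated arm (GCAGTGG for the 7mer-m8), ETS1 and SP1 had a 7mer-A1 at best in the 3′UTR, FBXO11 and MTFR1 a 6mer, and CUEDC2, KCND2 and TSPAN8 no match. Sites of 7 or 8 bases were present in 32.1% of all 3′UTRs. For the later start (GGCAGTG), KCND2 had a 7mer-A1 and the other 6 genes no match, beside 30.9% of all 3′UTRs with a site of 7 or 8 bases. With the 3p.1 duplex against control, genes with a site of 7 or 8 bases for the annotated arm had a median log2 fold change of -0.0305. Those with no site had -0.02865. For the later start the medians were -0.03015 and -0.0273.

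The genes most like CUEDC2 over the 6 libraries, by the root mean square difference of their log2 deviations from their own mean among 10623 other genes with at least 5 TPM, were VPS37B (0.0368), RSL24D1 (0.0584) and TRUB2 (0.0824). Likeness used all 6 libraries, the 5p duplex ones included, so the low values of these genes there follow from the choice and are a description. VPS37B, a subunit of the ESCRT-I sorting complex, stood at 22.5 and 19.4 TPM in control, 9.97 and 10.8 TPM after the 5p duplex, and 22.5 and 19.7 TPM after the 3p.1 duplex. Its log2 difference from control was -0.95 (adjusted p = 0.0498), and it had 2 sites of 7 or 8 bases for miR-324-5p. TRUB2, a mitochondrial pseudouridine synthase gene, differed by -1.01 (adjusted p = 0.0368) and was thus called with no site in its 3′UTR. RSL24D1, a ribosome assembly factor gene, differed by -0.88 (adjusted p = 0.0593) and had a 6mer at best.

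The genes most like FBXO11 were API5 (0.0232), AZI2 (0.0263) and CDV3 (0.0361). API5, an inhibitor of apoptosis, stood at 144 and 157 TPM in control, 122 and 108 TPM after the 5p duplex, and 134 and 136 TPM after the 3p.1 duplex. Their log2 differences from control after the 5p duplex were -0.39, -0.39 and -0.45, likewise a description. API5 had a 7mer-m8, CDV3 a 6mer and AZI2 no site.

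The genes that work with these 7 were taken from 8 lists recalled from textbook knowledge. By limma, fitted without regard to replicate number, 0 of their 120 measured members passed the test in any of the 3 comparisons. A fit that uses the replicate number is given with the alternatives below. Over the lists, 15 members had an unadjusted p under 0.05 with the 5p duplex against control, 6 with the 3p.1 duplex against control and 15 between the duplexes. Of all genes 9.16%, 6.86% and 9.34% had such a p in these comparisons, and 0.463%, 0.0149% and 0.433% were called. The share of 9.16% is the one to set beside the counts of each list below, which are for the 5p duplex against control. Around CUEDC2, 14 of 16 partner genes (IkB kinase, its phosphatase, JAK and STAT3, the mitotic checkpoint, hormone receptors) were measured. Their median log2 fold change with the 5p duplex was 0.0657, and 4 had an unadjusted p under 0.05. STAT3, IKBKG and SOCS3 (log2 -0.49, adjusted p = 0.544) were lower and PPP1R15A (log2 0.37, adjusted p = 0.538) was higher. STAT3, a cytokine-activated transcription factor, averaged 109 ± 11.3 TPM in the controls and 82.8 ± 3.36 TPM after the 5p duplex (n = 2, log2 -0.39, adjusted p = 0.266). IKBKG, the regulatory subunit of IkB kinase, stood at 45.3 ± 4.58 and 34.8 ± 3.65 TPM (n = 2, log2 -0.37, adjusted p = 0.417), and it alone among the partners had a 7mer-m8. CUEDC1, the nearest relative of CUEDC2, stood at 14.2 ± 0.255 and 15.6 ± 0.0778 TPM (n = 2, log2 0.13, adjusted p = 0.804).

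Around FBXO11, all 25 genes of the SCF ligase list were measured, with a median of -0.0296 and 3 at an unadjusted p under 0.05. BCL6, a transcriptional repressor and substrate of FBXO11, averaged 6.36 ± 0.212 TPM in the controls and 4.30 ± 0.445 TPM after the 5p duplex (n = 2, log2 -0.48, adjusted p = 0.313). FBXO22, another F-box receptor, had a log2 fold change of 0.36 (adjusted p = 0.258). FBXO10, the closest relative of FBXO11 and itself with an 8mer, differed from control by -0.11 on the log2 scale (SE 0.128, adjusted p = 0.874). BTRC and FBXO28, which also have an 8mer, differed from control by -0.076 and -0.16 on the log2 scale (adjusted p = 0.882 and 0.732).

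The ETS family had 17 of 26 genes measured, with a median of -0.151 and 3 at an unadjusted p under 0.05. ETV6, a repressor, and ERF, an ERK-regulated repressor, differed from control by -0.45 and -0.49 on the log2 scale (adjusted p = 0.264 and 0.342). ETS2, the closest relative of ETS1, averaged 23.8 ± 1.33 TPM in the controls and 26.7 ± 1.65 TPM after the 5p duplex (n = 2, log2 0.16, adjusted p = 0.764). Of 16 genes known as ETS1 targets, 9 were measured, with a median of -0.0505, and none of the 9 had a miR-324-5p site in its 3′UTR. NRP1, a semaphorin and VEGF co-receptor, stood at 172 ± 1.85 and 123 ± 12.7 TPM (n = 2, log2 -0.48, adjusted p = 0.131), and PLAU, the urokinase gene, had a log2 fold change of 0.16 (adjusted p = 0.857). NRP1 was the 1 of the 9 with an unadjusted p under 0.05.

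Of the SP and KLF family 15 of 21 genes were measured, with a median of -0.0675 and 2 at an unadjusted p under 0.05. SP3, the closest relative of SP1, averaged 57.5 ± 1.63 TPM in the controls and 57.5 ± 1.92 TPM after the 5p duplex (n = 2, log2 -0.00085, adjusted p = 0.999). KLF16 and KLF11, factors of the same zinc finger class, differed from control by -0.60 and -0.35 on the log2 scale (adjusted p = 0.201 and 0.300). KLF7 had an 8mer and a log2 fold change of 0.095 (adjusted p = 0.917).

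Mitochondrial fission and fusion genes were measured in all 16 cases, with a median of -0.00476 and none at an unadjusted p under 0.05. MTFR1L and MTFR2, the relatives of MTFR1, differed from control by 0.018 and -0.0086 on the log2 scale (adjusted p = 0.984 and 0.995). OPA1, the fusion GTPase of the inner membrane, had 0.20 and FIS1, an outer membrane fission adaptor, -0.24 (adjusted p = 0.603 and 0.732). Of the Kv4 channel complex, 5 of 12 genes reached the minimum, with a median of 0.0526 and none at an unadjusted p under 0.05. KCND1, the relative of KCND2, stood at 1.92 ± 0.120 and 1.94 ± 0.0212 TPM (n = 2, log2 0.01, adjusted p = 0.993), the auxiliary subunit genes KCNIP2 and KCNIP4 differed from control by 0.25 and 0.23 on the log2 scale (adjusted p = 0.795 and 0.818), and KCND3 stood between 0.05 and 0.21 TPM.

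Tetraspanins had 19 of 25 genes measured, with a median of -0.0268 and 2 at an unadjusted p under 0.05. TSPAN33, which has a 7mer-m8, averaged 4.42 ± 0.0990 TPM in the controls and 3.02 ± 0.0566 TPM after the 5p duplex (n = 2, log2 -0.43, adjusted p = 0.342). TSPAN4 had a log2 fold change of -0.33 (adjusted p = 0.474) and TSPAN3 one of 0.26 (adjusted p = 0.631). The other genes with a 7mer-m8 were TSPAN14, TSPAN17 and TSPAN31, and the 4 together had a median of -0.00356.

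**Figure D5:**
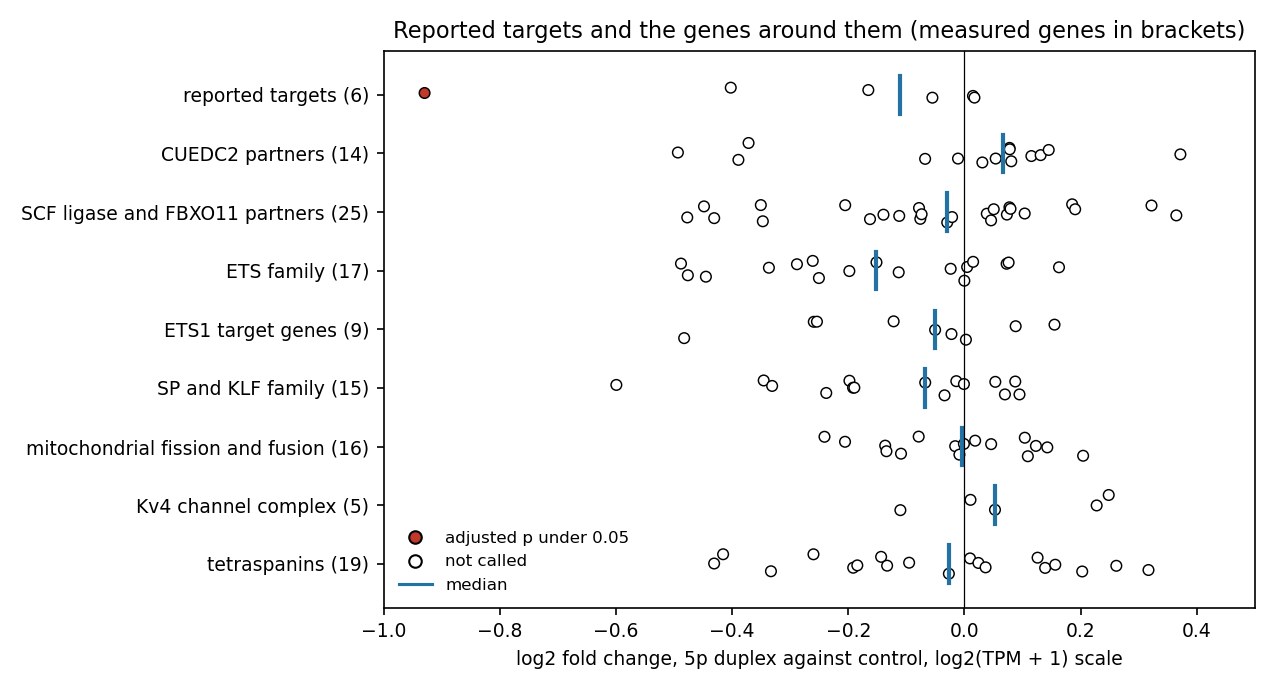
Log2 fold change of the 5p duplex against control (horizontal axis, log2(TPM + 1) scale) for the 6 measured targets and for the measured genes of 8 lists around them. Each point is a gene, blue bars are medians, and the filled point, CUEDC2 at -0.93, is the 1 gene with an adjusted p under 0.05.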

How the data were processed

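Per the submitters' processing notes, the authors used RSEM and GRCh38. Versions, the aligner and the annotation were not stated there. The deposited TPM values, 1 list per library, ran from 0.01 upward and summed to 1000000, so depth is unknown and no count test or counting interval was possible. Unlisted symbols were taken as 0, and the 21 to 23 repeated symbols per library were summed.

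The 13400 genes that averaged 1 TPM or more were fitted on log2(TPM + 1), which understates changes of low genes. limma 3.58.1 in R 4.3.3 fitted 3 group means to 6 libraries, with a variance trend (3 residual and 3.38 prior degrees of freedom). Benjamini-Hochberg adjustment ran over all genes, two-sided, with a call at an adjusted p under 0.05. No exact permutation test was run, since 2 against 2 libraries allow no p under 0.333. On simulated data for the 5p duplex against control (13400 genes), 70 of 100 changes of 1 and 96 of 100 changes of 2 on the log2 scale were recovered, with 8 false calls. The changes were placed only in genes above a minimum control level, with independent normal noise from each gene's own spread in these libraries. The rates therefore do not cover lower genes, and smaller changes were not simulated.

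Sites were sought in protein-coding transcripts of GENCODE 29 (GRCh38). Named genes were the 7 targets, the genes called in a list or else its 2 with the lowest p (the rule allowed up to 4), close paralogs, the 3 genes most alike to CUEDC2 and FBXO11, neighbours in rank among 8mer genes, and list genes with an 8mer, the last added after values were seen. Members and lists were chosen with earlier results of these data known. The 14 alternatives changed the pseudocount, the filter, the libraries, the replicate block, the variance trend or the normalization.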

Additional observations from a re-analysis of the deposited data

How the results depend on the processing

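CUEDC2 stayed below control (-1.04 to -0.81) and below the 3p.1 duplex (-1.05 to -0.93) in all 14 alternatives. Its call against control (adjusted p = 0.0326; 0.00746 to 0.228 over the alternatives) was lost in 9: the 5 fits without a library given above, no filter on low values (-0.93, adjusted p = 0.0973), only the 2 groups compared (-0.93, 0.0959), no variance trend (-0.93, 0.0649) and median centring (-0.87, 0.0656). Against the 3p.1 duplex (0.0292; 0.00728 to 0.266) it was lost in 6: the 4 fits above, no filter (-0.99, 0.0931) and no variance trend (-0.99, 0.0658). FBXO11 stayed below control (-0.49 to -0.31, adjusted p = 0.0817 to 0.496) in all 14, and MTFR1 did (-0.22 to -0.094).

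The number of genes called in all moved more. With the 5p duplex against control (62) it was 9 with no filter, 11 with only the 2 groups, 33 with no variance trend and 7 to 128 without 1 library. With the 3p.1 duplex against control (2) it was 0 with no filter, 18 with only the 2 groups and 5 to 94 without 1 library, and between the duplexes (58) it was 5, 19, 5 (no variance trend) and 7 to 26.

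With a replicate block, the counts were 367, 30 and 278. The labels tie replicate numbers to no batch, and the correlation across genes of replicate 2 minus replicate 1 between groups was 0.265 to 0.383. The block changed no call of the 6 tested genes (CUEDC2 -0.93, adjusted p = 0.00746; FBXO11 -0.40, 0.0817), and it called 1 gene in each of 4 of the 24 pairs of a pathway list and a comparison; no other alternative called any (336 fits). STAT3 and NRP1 gained their calls there.

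Small values turned sign. With 1 library left out, ranges over 5p duplex against control were -0.057 to 0.087 for ETS1, -0.22 to 0.11 for SP1, -0.18 to 0.21 for TSPAN8, -0.034 to 0.033 for SP3, -0.14 to 0.17 for MTFR1L, -0.20 to 0.18 for MTFR2, -0.0063 to 0.46 for KCNIP4 and -0.032 to 0.053 for KCND1. With the 3p.1 duplex they were -0.057 to 0.17 for CUEDC2 and -0.12 to 0.27 for TSPAN8, and between the duplexes -0.14 to 0.020 for TSPAN8. Median centring turned SP1 (0.0022), SP3 (0.056) and MTFR2 (0.049), and quantile normalization SP3 (0.043) and MTFR2 (0.040). With sites pooled over all annotated transcripts, 4 of the 7 genes had an 8mer as before. Depth is unknown, so no limit from counting can be given for KCND2 or TSPAN8.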
